A study of Mus musculus with 17 samples.

Results

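The 40 genes described here encode proteins that drive or carry out the last part of the cell cycle, G2 phase and mitosis (M), and are commonly read as a measure of proliferation. They were taken by gene symbol from a list of names, and the list was drawn up with earlier results of these data known. All 40 were found among the 35321 genes of the count table, and all 40 passed the filter on low counts that left 14920 genes for testing. They took between 0.48% and 0.83% of the counts of a library. They were read in each library as the mean log2 level of all 40, and gene by gene across the groups.

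RNA was sequenced in 17 libraries of blood-forming stem and progenitor cells of the bone marrow (HSPC), sorted from wild-type mice of the inbred strain C57BL/6J. No group carries a mutation or a transgene, and the groups differ in what was injected into the peritoneum. The PBS group (5 libraries, titled day 0) received phosphate-buffered saline. The LPS groups (3 libraries at 24 h and 3 at 72 h) received lipopolysaccharide, a component of the bacterial cell wall that sets off inflammation. The antibody groups (3 libraries at 24 h and 3 at 72 h) received LPS and also a blocking antibody to IL-10R, the receptor of interleukin-10, a cytokine that restrains inflammation. The design text gives the amounts as 5 µg of LPS and 100 µg of antibody, whereas the protocol gives the same figures in mg, and neither was assumed. The protocol names both times for PBS too, without saying which holds for a library titled day 0, so LPS and time after injection cannot be told apart in a comparison with PBS. No group analysed here received the antibody without LPS. The stains that defined HSPC in the sort are not described in the labels. The labels do not say that each library came from a separate mouse, so p-values measure the spread between these libraries, which may be technical.

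Cells enter mitosis when cyclin B and the kinase Cdk1 form an active complex, and they leave it when the anaphase-promoting complex (APC/C) marks cyclin B and other proteins for destruction. Between these steps the kinesins and their partners build the spindle, the kinetochores attach chromosomes to it, and the checkpoint holds the APC/C back until every chromosome is attached. The genes of this programme are transcribed late in the cell cycle, in large part through the DREAM and B-Myb complexes at a cell cycle homology region (CHR) and through NF-Y at CCAAT boxes, so that their RNA rises together in dividing cells. Most stem cells of the marrow are quiescent, whereas the progenitors derived from them divide often, and inflammation is known to push stem cells into cycle.

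Total counts ran from 10516722 to 16006001 per library. One library stood apart in composition, replicate 1 of LPS at 24 h, with a scaling factor of 0.80 against 0.95 to 1.12 elsewhere and 16431 genes detected against 16815 to 18778. The 8 HSPC markers examined (among them Kit, Cd34 and Flt3) were all detected and summed to between 1873 and 3033 CPM, that is counts scaled to the size of the library. The sum of 12 erythroid markers ran from 65.6 to 2613 CPM, and markers of monocytes and macrophages ran from 440 to 3194 CPM in the PBS group and from 142 to 507 CPM in the treated groups. In RNA from sorted bulk cells, a smaller share of cells of one kind and less RNA per cell cannot be told apart, and this holds for every level given below.

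The start regions of the genes are shown because the CHR and the CCAAT box are the elements through which such genes are known to be transcribed. RefSeq windows of 300 bases (250 before and 50 after an annotated start, build GRCm38.p6) were matched by symbol for 36 of the 40, all but Aurkb, Kif20a, Ccna2 and Tpx2. A CHR, searched as TTTGAA or TTCGAA on either strand, lay in 28 of the 36 windows (77.8%) against 21.7% of the 27018 genes with a window. A CCAAT box, searched as CCAAT on either strand, lay in 28 (77.8%) against 41.1%. Both lay in 24 (66.7%) against 8.61%. In the 100 bases before the start alone, a CHR lay in 25% against 7.18%, a CCAAT box in 72.2% against 21.6% and both in 22.2% against 1.36%. The 110 bases before the start of 8 members follow, 5′ to 3′ on the strand of the gene, with matches to either motif in capitals. Cdk1, Cdc20 and Top2a are shown for having both motifs, Kif23 and Nusap1 as the members that differed between LPS at 24 h and at 72 h, and Tacc3, Birc5 and Gtse1 as members that were higher at 24 h after LPS.
Cdk1 (chr10:69352913-69353022, minus strand): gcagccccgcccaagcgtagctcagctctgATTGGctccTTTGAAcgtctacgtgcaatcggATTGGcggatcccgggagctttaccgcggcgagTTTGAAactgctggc
Cdc20 (chr4:118437344-118437453, minus strand): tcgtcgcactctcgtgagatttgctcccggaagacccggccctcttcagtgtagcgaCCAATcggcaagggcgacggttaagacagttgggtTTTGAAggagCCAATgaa
Top2a (chr11:99024190-99024299, minus strand): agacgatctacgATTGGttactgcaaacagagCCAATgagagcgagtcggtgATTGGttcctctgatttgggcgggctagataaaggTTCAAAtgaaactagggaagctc
Kif23 (chr9:61946800-61946909, minus strand): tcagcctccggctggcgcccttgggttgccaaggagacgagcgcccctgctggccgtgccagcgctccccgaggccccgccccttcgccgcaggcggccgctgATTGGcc
Nusap1 (chr2:119618188-119618297, plus strand): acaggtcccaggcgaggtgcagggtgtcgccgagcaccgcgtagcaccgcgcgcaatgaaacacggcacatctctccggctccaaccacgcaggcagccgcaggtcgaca
Tacc3 (chr5:33658018-33658127, plus strand): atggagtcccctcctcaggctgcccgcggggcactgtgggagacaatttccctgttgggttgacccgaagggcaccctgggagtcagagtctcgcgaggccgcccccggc
Birc5 (chr11:117849127-117849236, plus strand): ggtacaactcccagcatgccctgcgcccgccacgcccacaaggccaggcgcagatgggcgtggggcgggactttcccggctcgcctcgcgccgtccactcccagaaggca
Gtse1 (chr15:85859597-85859706, plus strand): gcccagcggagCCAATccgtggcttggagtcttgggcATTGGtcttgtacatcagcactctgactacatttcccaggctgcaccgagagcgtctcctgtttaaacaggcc

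Cdk1 has 2 matches to the CHR and 2 CCAAT boxes in this stretch, Cdc20 has 1 and 2, and Top2a has 1 and 3. Kif23 has 1 CCAAT box and Gtse1 has 2, each with no CHR in this stretch. Kif23 does have a CHR match at base 3 after the start, outside the stretch shown. Nusap1, Tacc3 and Birc5 have neither string here. Bub1, also higher at 24 h after LPS but not shown, has a CHR match at base 15 after the start. It has CCAAT boxes 68 and 42 bases before the start. Ccna2, which was higher too, has no window. The stretches shown were picked and do not stand for the members that rose. A match of letters is a description of the sequence and was not tested for binding.

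Set against transcript length, the most abundant of the 40 in the PBS group was Top2a, which encodes the topoisomerase that untangles sister chromatids, at 144 ± 20.7 CPM per kb (SD, n = 5). Next came the small Cdk-binding subunits Cks2 (124 ± 20.1) and Cks1b (121 ± 19.6), the APC/C-partner ubiquitin-conjugating enzyme Ube2c (111 ± 31.96) and Birc5 (105 ± 14.1), and neighbours in this order differed by no more than the larger SD of the pair. The lowest were Gtse1 (12.8 ± 3.30) and Cenpf (11.5 ± 2.61), which differed by less than either SD. Transcript lengths are those of the GENCODE M21 transcript with the longest coding sequence. Of the 40, 12 share exonic bases with another gene, and for 5 the share is above 10%: Ccna2 with Exosc9, Ube2c with Tnnc2, Kif20a with Cdc23, Kif4 with Pdzd11 and Prc1 with Rccd1, all on the opposite strand. Whether counting used the strand is not given in the sources used here, so the levels of those 5 are uncertain. Cks1b and Cks2 are close paralogs, and how reads matching both were counted is likewise not given.

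The 40 genes varied together from library to library by as much as from group to group. Their mean level, in log2 CPM, was 6.53, 6.61, 6.96, 7.04 and 6.62 in PBS libraries 1 to 5, and 6.97, 6.96 and 6.72 in the LPS libraries at 24 h. It was 6.69, 6.62 and 7.15 with LPS and antibody at 24 h, 6.83, 6.98 and 7.21 with LPS at 72 h, and 6.62, 6.81 and 7.18 with LPS and antibody at 72 h. All 5 groups overlapped. The group means ran from 6.75 ± 0.23 (SD, n = 5) with PBS to 7.01 ± 0.19 (SD, n = 3) with LPS at 72 h, and the SD pooled over the groups was 0.23. A single member spread no more than other genes did: its median pooled SD was 0.288 on the log2 scale against 0.287 for all genes tested.

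**Figure D1:**
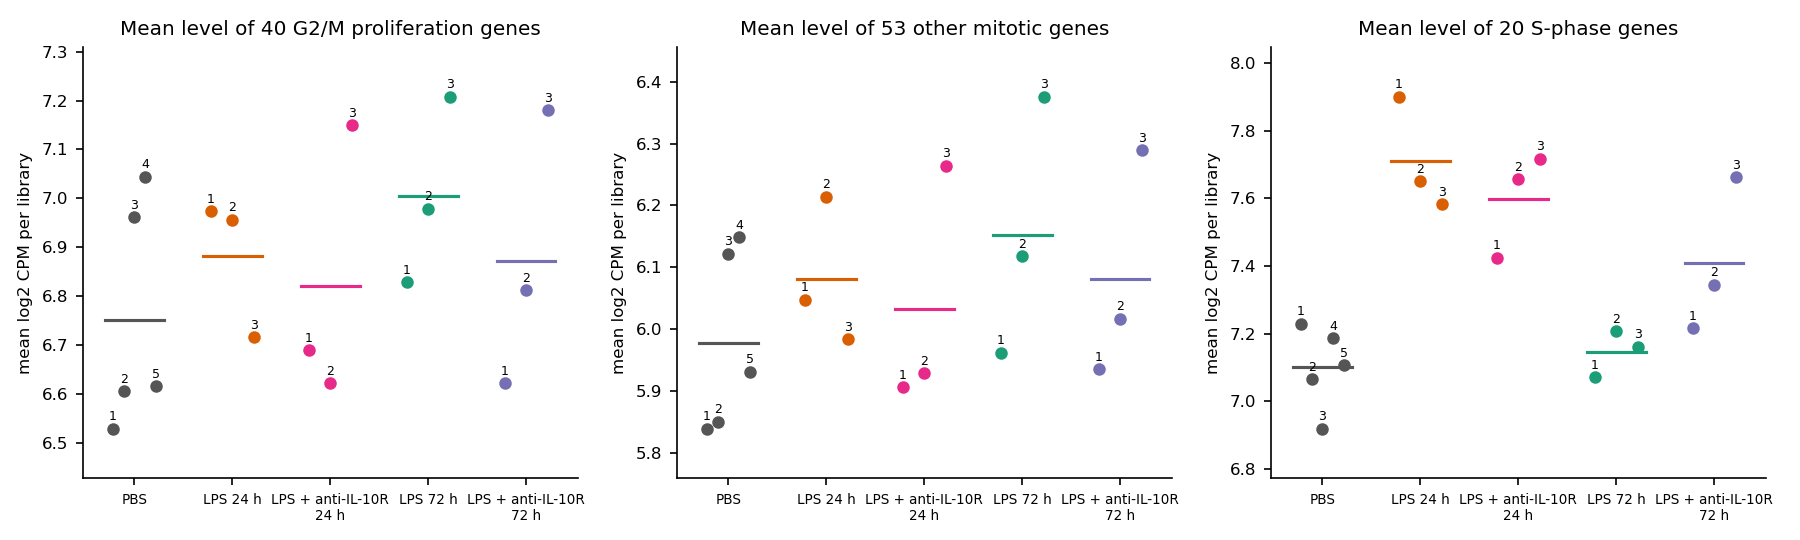
Mean log2 CPM per library (y axis, not starting at 0 and with a different range in each panel) of the 40 G2/M genes, 53 other mitotic genes and 20 S-phase genes, by group. Points are libraries, numbered by replicate, and lines are group means; the G2/M means overlap in all 5 groups, whereas the S-phase means of the LPS 24 h libraries (7.58 to 7.90) lie above those of PBS (6.92 to 7.23).

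The libraries numbered 3 held the highest levels in 3 groups. Replicate 3 had the highest level of the group for 36 of the 40 genes with LPS and antibody at 24 h, for 30 with LPS at 72 h and for 39 with LPS and antibody at 72 h. With PBS, replicate 4 was highest for 27 and replicate 3 for 13, and with LPS at 24 h replicate 2 was highest for 23 and replicate 1 for 16. The same 3 libraries numbered 3 had the least erythroid RNA of all 17. The mean of the 12 erythroid markers there was -0.10, -0.98 and -0.71 log2 CPM, in the order of the groups above, against 3.90 to 4.598 in the PBS libraries. Hbb-bs, a beta globin, was at 0.081, 0 and 0 CPM in those 3 libraries and at 20.2 to 77.8 CPM with PBS. The same libraries were also the lowest of their groups for 11 B-lymphoid markers, with means of 0.31, 1.79 and -0.074 log2 CPM, and for 8 megakaryocyte markers, with means of 2.09, 2.24 and 1.44. So were the means of the HSPC markers (7.54, 7.70 and 7.46) and of the monocyte and macrophage markers (1.54, 2.11 and 1.75). In summed CPM these last 2 lists were lowest there only with antibody at 72 h. The means of stem cell, neutrophil, and T and NK markers were not lowest in all 3 libraries. The part of the cell mixture in the G2/M levels was not tested. Among the 5 PBS libraries, with erythroid means between 3.90 and 4.598, the G2/M mean ranged from 6.53 to 7.04.

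**Figure D2:**
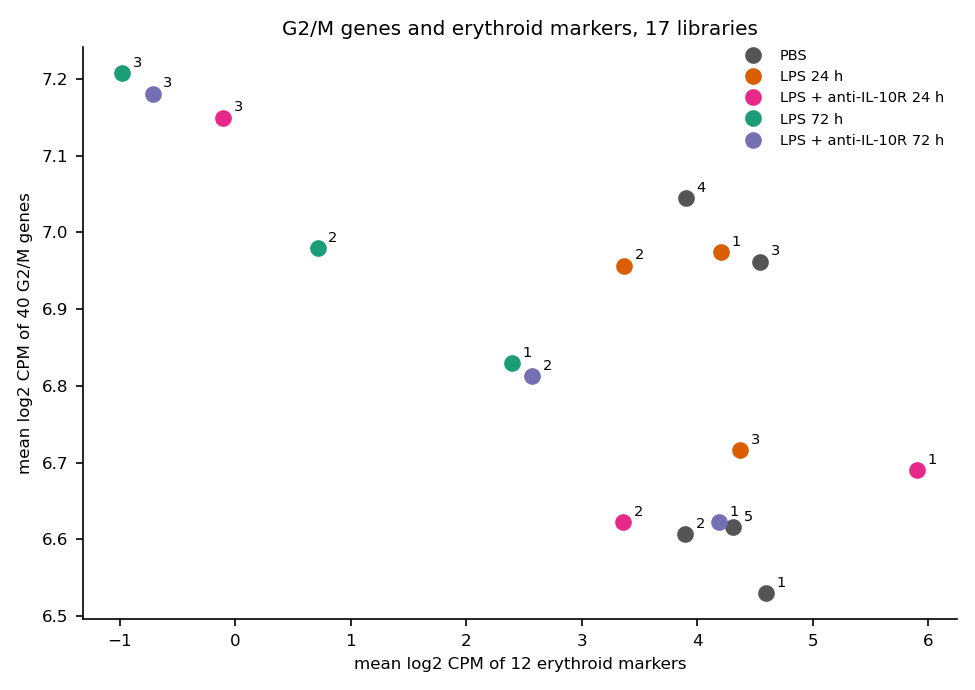
Mean log2 CPM of the 40 G2/M genes (y axis, not starting at 0) against that of 12 erythroid markers (x axis) in the 17 libraries, coloured by group and numbered by replicate. The 3 libraries at the upper left, with G2/M means of 7.15 to 7.21 and erythroid means below 0, are replicate 3 of both antibody groups and of LPS at 72 h.

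At 24 h after LPS the G2/M genes did not move as 1 group. Of the 40, 5 rose against PBS (Ccna2, Birc5, Bub1, Gtse1 and Tacc3) and 1 fell (Kif23) by edgeR's quasi-likelihood test, which is 15% of them against 37.6% of all genes tested (19.1% higher and 18.5% lower). The median log2 change of the 40 was 0.13 against -0.03 for all genes, and 27 were positive and 13 negative. The libraries of the LPS and PBS groups did not overlap for 3 genes, Bub1 and Kif20a above PBS and Kif23 below, or 7.5% of the 40 against 42.8% of all genes. Replicate 1 of the LPS group carried much of this result: without it 0 of the 40 were called (2 at an unadjusted p below 0.05), although 22.03% of all genes still were. The count was 1 without PBS replicate 2, 2 without PBS replicate 5 and 10 without PBS replicate 4. Leaving out PBS replicate 1 gave 2 higher and 3 lower, and leaving out LPS replicate 2 gave 5 higher and 3 lower. Without LPS replicate 3 there were 7 higher and 0 lower. These 3 fits called 31.2% to 35.7% of all genes. A fit blocked on replicate number called 5 of the 40, without Birc5, and 27.9% of all genes. Voom called 3 higher (Bub1, Tacc3 and Gtse1) and 3 lower (Kif23, Nusap1 and Cenpf), against 45.8% of all genes. The median of the 40 was then 0.02. DESeq2 called 8 higher and 2 lower, against 40.7% of all genes. With upper-quartile scaling, which moved the median of all genes to -0.16 and the higher share of all calls from 50.7% to 36.8%, 1 rose (Tacc3) and 3 fell (Kif23, Nusap1 and Cenpf), and the median of the 40 was 0.00.

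With LPS and antibody at 24 h, Tacc3 alone was called of the 40, higher than PBS, against 24.2% of all genes. None of the 40 separated the libraries of the groups, against 31% of all genes. The median log2 change was 0.10 against -0.001 for all genes, and -0.03 without antibody replicate 3. The call of Tacc3 was lost when any library of the comparison except PBS replicate 4 was left out. In place of it Nusap1 and Kif23 were called lower without antibody replicate 3. With upper-quartile scaling the median of the 40 was -0.01 and Cenpf was called lower. The count was 0 without PBS replicate 2, 3 or 5 or antibody replicate 2, and 2 without PBS replicate 4.

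At 72 h after LPS, 0 of the 40 differed from PBS by edgeR (4 at an unadjusted p below 0.05), against 0.0201% of all genes. DESeq2 called 0 of the 40 against 1.19% of all genes, and voom called 3 (7.5%) against 14.5%. There 38 of the 40 log2 changes were positive, with a median of 0.23 against -0.03 for all genes, and 31 were positive, with a median of 0.11, without LPS replicate 3. The libraries did not overlap for Cdca3, Birc5, Cenpa and Ndc80, all higher at 72 h, which is 10% of the 40 against 12% of all genes. With LPS and antibody at 72 h, Gtse1 alone was called, higher than PBS, against 13.2% of all genes. The median of the 40 was 0.14 against -0.002 for all genes, and -0.05 without antibody replicate 3. Only Kif20b had all antibody libraries above all of PBS, or 2.5% of the 40 against 26.9% of all genes. The call of Gtse1 was lost without PBS replicate 1, 2 or 5, without antibody replicate 1 or 3, and with upper-quartile scaling. These 4 comparisons share the 5 PBS libraries.

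**Figure D3:**
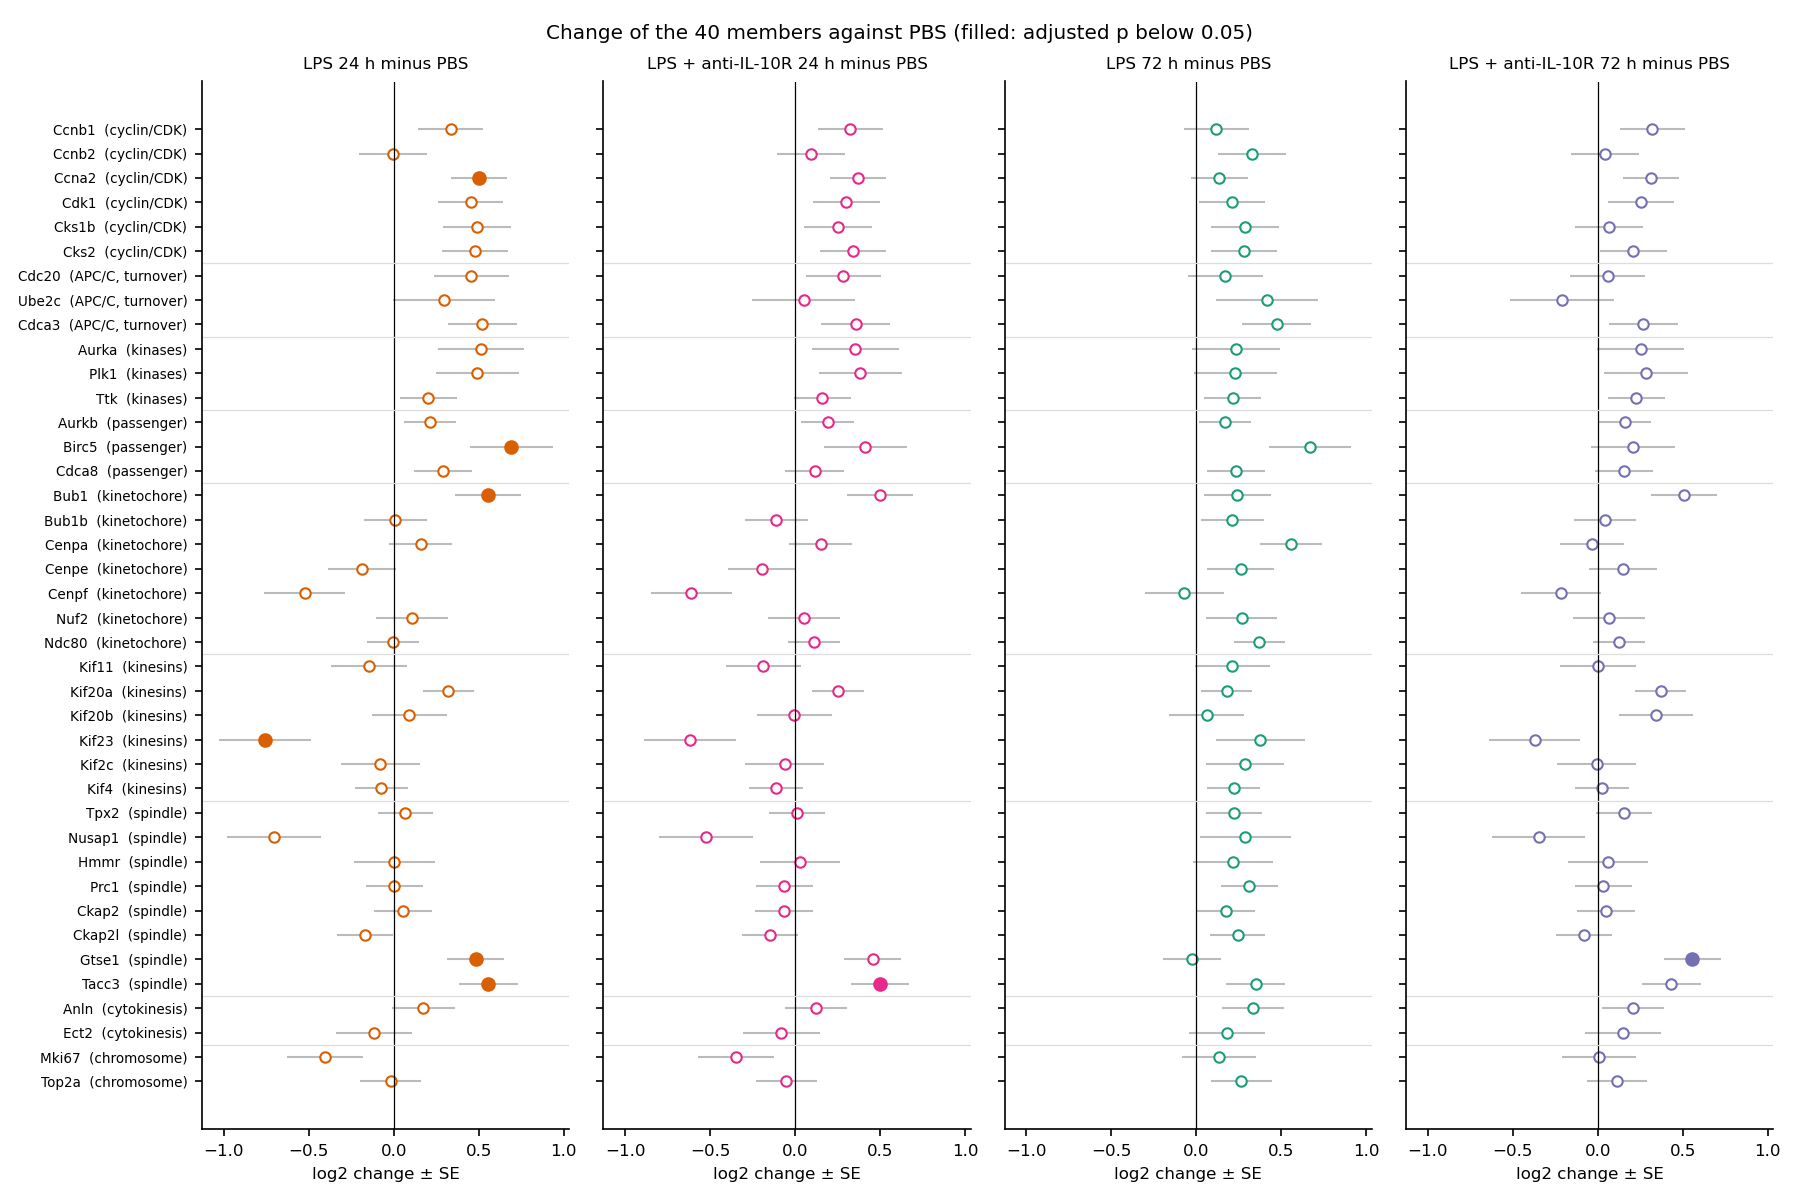
Log2 change against PBS (x axis) of each of the 40 genes, ordered by role, in the 4 treated groups. Points are the fitted changes and bars their SE; filled points had an edgeR adjusted p below 0.05, which holds for 6 genes with LPS at 24 h, 1 with each antibody group and 0 with LPS at 72 h.

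The antibody itself made no difference to these genes that passed the test. At 24 h, 0 of the 40 differed between LPS with and without antibody (0 at an unadjusted p below 0.05, and 0 by DESeq2 and by voom), against 0% of all genes (273 at an unadjusted p below 0.05). None of the 40 separated the libraries of the 2 groups, against 3.15% of all genes. At 72 h, 0 of the 40 were called by edgeR (3 at an unadjusted p below 0.05) against 15.1% of all genes. DESeq2 called 2 at 72 h (Gtse1 higher, Cenpa lower), 5% of the 40 against 20.3% of all genes. Voom called 4 (Cenpa, Kif23, Birc5 and Ube2c, all lower with antibody), 10% against 29.7%. Leaving out antibody replicate 2 gave 1 call (Gtse1, higher) and leaving out antibody replicate 3 gave 1 (Kif23, lower). The libraries did not overlap for Gtse1, higher with antibody, and for Cenpa, Kif23 and Nusap1, lower, or 10% of the 40 against 33.2% of all genes. The median difference of the 40 at 72 h was -0.12, but 0.07 without LPS replicate 3 and 0.04 without antibody replicate 1. The antibody effect at 72 h minus that at 24 h was called for 0 of the 40 (1 at an unadjusted p below 0.05, and 0 by DESeq2 and by voom) against 6.35% of all genes. A difference that misses the threshold does not show that the groups were alike.

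Between 24 h and 72 h after LPS, Kif23 and Nusap1 rose, 2 of the 40 (5%) against 31.1% of all genes, and none fell in the main edgeR fit. DESeq2, the replicate block and the fit of the compared groups alone each called Gtse1 lower as well. The 72 h libraries of Kif23, Nusap1, Ccnb2, Cenpa, Prc1 and Ckap2l lay above the 24 h libraries without overlap, while those of Bub1 and Gtse1 lay below. This is 20% of the 40 against 45.4% of all genes. Voom called 8 (7 higher, and Gtse1 lower) against 46.6% of all genes, and upper-quartile scaling, which moved the median of all genes from 0.02 to 0.13, called 4, all higher. Leaving out LPS replicate 3 at 72 h left 0 called, and leaving out replicate 1 or 3 at 24 h or replicate 2 at 72 h left 1. Between the antibody groups at 24 h and 72 h, 0 of the 40 were called (0 at an unadjusted p below 0.05, and 0 by DESeq2 and by voom), against 0% of all genes. The libraries at 72 h lay above those at 24 h without overlap for Cenpe, Cenpf, Kif20b and Mki67, or 10% of the 40 against 9.26% of all genes.

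**Figure D4:**
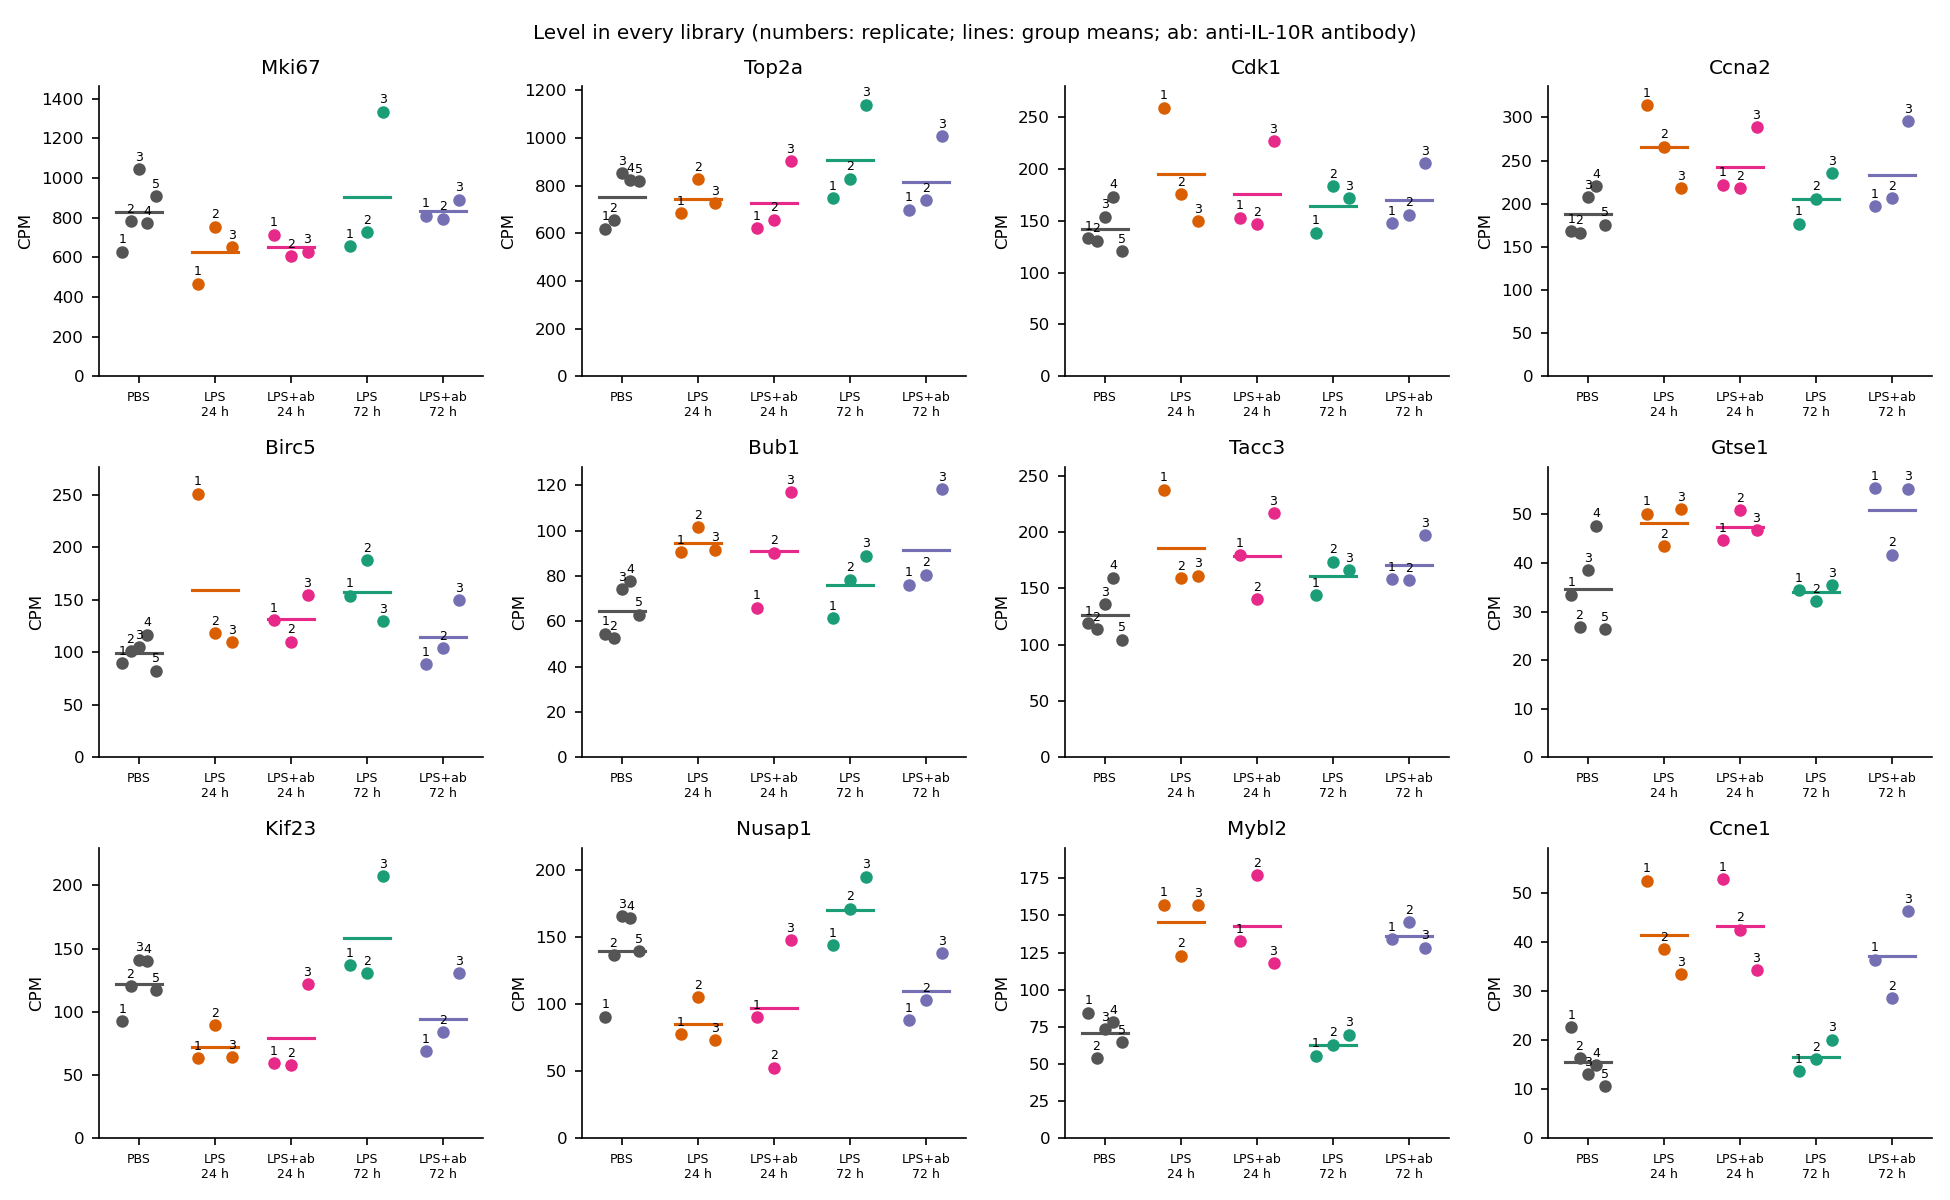
CPM per library (y axis, from 0) of 10 of the 40 genes and of Mybl2 and Ccne1, by group. Points are libraries numbered by replicate and lines are group means; the LPS 72 h libraries of Kif23 (131 to 207) lie above those of LPS 24 h (63.4 to 89.3), and replicate 1 of LPS 24 h is the highest of its group for Cdk1, Ccna2, Birc5 and Tacc3.

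Among the cyclins and the subunits of Cdk1, Ccna2 was the member that rose at 24 h after LPS. Ccna2, cyclin A2, acts in S phase and at the entry to mitosis. Its level was 168, 167, 208, 220.4 and 176 CPM in PBS libraries 1 to 5 and 314, 266 and 218 CPM in the LPS libraries at 24 h. It was 222, 218 and 288 with antibody at 24 h, 177, 206 and 235 with LPS at 72 h and 197, 206 and 296 with antibody at 72 h. LPS replicate 3 at 24 h lay just below PBS replicate 4, so that the groups overlapped. The log2 change at 24 h was 0.50 (SE 0.166, edgeR adjusted p = 0.0266), and it was 0.38 without LPS replicate 1 (adjusted p = 0.151). In all, the call was lost in 2 of the 7 other settings and with 3 of the 8 libraries left out in turn.

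Cdk1, the kinase that starts mitosis, stood at 133, 131, 154, 173 and 121 CPM with PBS and 259, 175 and 149.8 CPM with LPS at 24 h. With antibody at 24 h it stood at 153, 147 and 227, with LPS at 72 h at 139, 183 and 172 and with antibody at 72 h at 148, 156 and 205. LPS replicate 1 at 24 h was the highest of all 17, and the other LPS libraries lay within or just above the PBS range. The log2 change at 24 h was 0.45 (SE 0.194, edgeR adjusted p = 0.0782) and did not pass. Ccnb1, cyclin B1, had 129.7, 116, 163, 181 and 114 CPM with PBS, 183, 189 and 160.2 with LPS at 24 h and 144, 157 and 227 with antibody at 24 h. At 72 h it had 126, 154 and 178 with LPS and 142, 170.0 and 215 with antibody. All groups overlapped, and the change at 24 h after LPS was 0.33 (SE 0.191, edgeR adjusted p = 0.181). Ccnb2, Cks1b and Cks2 were called in no comparison, and over the 6 genes of this role the log2 changes at 24 h after LPS lay between -0.004 and 0.50.

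The genes grouped under the APC/C and protein turnover include Cdc20, the activator of the APC/C in mitosis, and Ube2c, which starts the ubiquitin chains. Cdca3, grouped with them under turnover, serves the destruction of an inhibitor of mitotic entry. None of the 3 was called in any comparison. Ube2c gave the greatest decrease of the 40 between the antibody groups at 24 h and 72 h. It stood at 83.8, 90.4, 125, 153 and 84.4 CPM with PBS, 204, 108 and 84.01 with LPS at 24 h and 110.3, 84.3 and 139.5 with antibody at 24 h. At 72 h it stood at 144, 158 and 128 with LPS and 61.4, 81.5 and 136 with antibody. The antibody groups overlapped, and the log2 difference between them was -0.26 (SE 0.339, edgeR adjusted p = 0.931). Over the 3 genes, the changes against PBS lay between 0.29 and 0.52 at 24 h after LPS.

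Of the mitotic kinases, Plk1, which drives mitotic entry and spindle formation, Aurka, which matures the spindle poles, and Ttk, which signals from unattached kinetochores, none was called in any comparison. Plk1 stood at 81.7, 73.9, 105, 121 and 66.95 CPM with PBS, 163, 123 and 92.7 with LPS at 24 h and 101, 103 and 147 with antibody at 24 h. At 72 h it stood at 97.2, 98.7 and 119.9 with LPS and 72.8, 103 and 153 with antibody. Replicate 3 was the highest in 3 of the 5 groups, and all groups overlapped. The log2 change at 24 h after LPS was 0.49 (SE 0.245, edgeR adjusted p = 0.126).

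The chromosomal passenger complex, which corrects faulty attachments and then guides cytokinesis, is present here by its kinase Aurkb and its subunits Birc5 (survivin) and Cdca8 (borealin). Birc5 rose at 24 h after LPS with the greatest log2 change of the 40, 0.69 (SE 0.243, edgeR adjusted p = 0.0357). Its level was 89.5, 101, 105, 117 and 82.7 CPM with PBS and 251, 119 and 109.8 CPM with LPS at 24 h, so that replicate 1 was more than 2-fold above the other LPS libraries. It was 131, 110.2 and 155 with antibody at 24 h, 154, 188 and 129.9 with LPS at 72 h and 88.6, 104 and 149.9 with antibody at 72 h. Without LPS replicate 1 the change at 24 h was 0.22 (adjusted p = 0.460), and a fit blocked on replicate number did not call Birc5 (adjusted p = 0.116). In all, the call at 24 h was lost in 3 of the 7 other settings and with 4 of the 8 libraries left out in turn. At 72 h after LPS the change was 0.67 (SE 0.243, edgeR adjusted p = 0.336), and the 3 libraries lay above all 5 of PBS. Between LPS with and without antibody at 24 h Birc5 gave the greatest decrease of the 40, -0.28 (SE 0.276, edgeR adjusted p = 1), which was 0.22 without LPS replicate 1.

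Aurkb had 102, 108, 132, 150.4 and 105 CPM with PBS, 145, 150.1 and 120.4 with LPS at 24 h and 119, 125 and 165 with antibody at 24 h. At 72 h it had 117, 128 and 157 with LPS and 119.6, 133 and 148 with antibody. All groups overlapped, and the change at 24 h after LPS was 0.21 (SE 0.155, edgeR adjusted p = 0.294). Cdca8 was called in no comparison.

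Of the 7 kinetochore and checkpoint genes, only Bub1 was called at 24 h after LPS by the main edgeR fit. The log2 changes of the 7 ran from -0.52 (Cenpf, not called) to 0.55 (Bub1), 4 positive and 3 negative. Bub1, a checkpoint kinase at the kinetochore, rose at 24 h after LPS by 0.55 (SE 0.195, edgeR adjusted p = 0.0359) on the log2 scale. It stood at 54.6, 52.7, 74.3, 77.9 and 63.02 CPM with PBS and 90.7, 102 and 91.7 CPM with LPS at 24 h, without overlap. It stood at 66.02, 90.4 and 117 with antibody at 24 h, 61.3, 78.4 and 89.01 with LPS at 72 h and 76.3, 80.6 and 118 with antibody at 72 h. The size of the change at 24 h held when libraries were left out (0.49 to 0.63), but the adjusted p then ran from 0.0258 to 0.0982 and was above 0.05 in 6 of the 8 cases.

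Cenpf, a large kinetochore protein with the longest transcript of the 40, gave the lowest log2 change at 72 h after LPS, -0.07 (SE 0.233, edgeR adjusted p = 0.928), which is near 0. Its level was 87.3, 114, 164, 139.7 and 135 CPM with PBS, 66.2, 119 and 81.6 with LPS at 24 h and 85.3, 70.4 and 95.9 with antibody at 24 h. By 72 h it was 94.7, 98.97 and 172 with LPS and 99.7, 111 and 120.4 with antibody. The antibody libraries at 72 h lay above those at 24 h, a log2 difference of 0.39 (SE 0.261, edgeR adjusted p = 0.918). Cenpa, the histone H3 variant of the centromere, stood at 101, 96.5, 139, 136 and 82.2 CPM with PBS and 161, 164 and 165 CPM with LPS at 72 h, where it did not overlap PBS. With antibody at 72 h Cenpa stood at 102, 97.7 and 125, below all LPS libraries of that time. Cenpa was picked after its values were seen. The main edgeR fit called Cenpa in no comparison, and none of Bub1b, Cenpe, Nuf2 and Ndc80 either.

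Kif23, a kinesin of the centralspindlin complex that bundles microtubules for cytokinesis, was the member that changed most. It fell at 24 h after LPS by 0.76 (SE 0.273, edgeR adjusted p = 0.0393) on the log2 scale, and it rose between 24 h and 72 h by 1.13 (SE 0.300, edgeR adjusted p = 0.0104). Its level was 92.5, 120.1, 141, 139.8 and 117 CPM with PBS, 63.4, 89.3 and 64.1 with LPS at 24 h and 137, 131 and 207 with LPS at 72 h. All 3 libraries at 24 h lay below all of PBS and all of LPS at 72 h. The rise was called in 12 of 13 other settings, with the exception of the fit without LPS replicate 3 at 72 h (0.87, adjusted p = 0.0545). The fall at 24 h was called in 8 of 15 other settings.

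With antibody Kif23 stood at 59.2, 57.8 and 122 CPM at 24 h and at 68.7, 83.9 and 131 CPM at 72 h, with replicate 3 highest both times. The change against PBS was -0.62 (SE 0.271, edgeR adjusted p = 0.106) at 24 h and -0.37 (SE 0.268, edgeR adjusted p = 0.362) at 72 h, neither called. Without antibody replicate 3 at 24 h the first was -1.03 (adjusted p = 0.0172). At 72 h all antibody libraries lay below the lowest LPS library, replicate 3 only just, a log2 difference of -0.75 (SE 0.298, edgeR adjusted p = 0.0973). The antibody effect at 72 h minus that at 24 h was -0.89 (SE 0.421, edgeR adjusted p = 0.210). Kif11, Kif20a, Kif20b, Kif2c and Kif4, the other kinesins, were called in no comparison.

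Nusap1, which binds and stabilises spindle microtubules, rose between 24 h and 72 h after LPS, as Kif23 did. Its log2 change against PBS at 24 h after LPS was -0.71. The main edgeR fit did not call that change, and the libraries of the 2 groups overlapped. Its level was 90.6, 136, 166, 164 and 139 CPM with PBS, 77.5, 105 and 73.04 with LPS at 24 h and 143, 171 and 195 with LPS at 72 h. The LPS libraries at 72 h all lay above those at 24 h, a rise of 0.99 (SE 0.305, edgeR adjusted p = 0.0221) on the log2 scale. The rise lay between 0.86 and 1.17 when libraries were left out, with an adjusted p of up to 0.0843 and above 0.05 in 4 of 6 cases. With antibody Nusap1 stood at 90.4, 52.6 and 147 CPM at 24 h and 88.1, 103 and 138 CPM at 72 h. Its difference between LPS with and without antibody at 24 h was the highest of the 40, 0.18 (SE 0.303, edgeR adjusted p = 1), and was -0.24 without antibody replicate 3.

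Tacc3 and Gtse1 lay on the other side. Tacc3 helps to hold the microtubules of the spindle fibres together, and Gtse1 is a microtubule-bound protein that stabilises the spindle and acts on p53 in G2. Tacc3 stood at 119, 114, 136, 159.5 and 104 CPM with PBS, 238, 159 and 161 with LPS at 24 h and 179, 141 and 217 with antibody at 24 h. By 72 h it stood at 144, 174 and 166 with LPS and 158, 157 and 197 with antibody. It rose against PBS by 0.56 (SE 0.173, edgeR adjusted p = 0.0203) at 24 h after LPS, and by 0.50 (SE 0.173, edgeR adjusted p = 0.0470) with antibody. PBS replicate 4 overlapped the treated libraries in both comparisons. The first call was kept in 14 of 15 other settings, lost without LPS replicate 1 (0.35, adjusted p = 0.169), and the second was lost in 11 of 15.

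Gtse1 stood at 33.5, 26.8, 38.5, 47.7 and 26.4 CPM with PBS, 50.2, 43.5 and 51.2 with LPS at 24 h and 44.7, 50.8 and 46.8 with antibody at 24 h. By 72 h it stood at 34.5, 32.1 and 35.5 with LPS and 55.4, 41.8 and 55.3 with antibody. At 72 h the LPS libraries lay inside the PBS range and below every antibody library. Gtse1 rose against PBS by 0.48 (SE 0.168, edgeR adjusted p = 0.0347) at 24 h after LPS and by 0.56 (SE 0.168, edgeR adjusted p = 0.0413) with antibody at 72 h. The difference between antibody and LPS at 72 h was 0.58 (SE 0.192, edgeR adjusted p = 0.0527) and that between LPS at 72 h and at 24 h -0.50 (SE 0.191, edgeR adjusted p = 0.0560), each just short of a call. The rise at 24 h was lost in 7 of 15 other settings and the rise with antibody in 8 of 15. The antibody effect at 72 h minus that at 24 h was 0.60 (SE 0.270, edgeR adjusted p = 0.184). Tpx2, Hmmr, Prc1, Ckap2 and Ckap2l, also of the spindle, were called in no comparison, nor were Anln and Ect2, which build the contractile ring.

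Mki67, which encodes the antigen Ki-67 that coats mitotic chromosomes, and Top2a were called in no comparison. Mki67 stood at 629, 781, 1043, 774 and 909 CPM with PBS, 467, 755 and 653 with LPS at 24 h and 715, 606 and 629 with antibody at 24 h. By 72 h it stood at 657, 727 and 1334 with LPS and 810.4, 796 and 890.4 with antibody. The change at 24 h after LPS was -0.41 (SE 0.222, edgeR adjusted p = 0.164), and all groups overlapped PBS. Top2a stood at 619, 656, 853, 824 and 819 CPM with PBS, 683, 826 and 726 with LPS at 24 h and 622, 657 and 902 with antibody at 24 h. By 72 h it stood at 747, 829.2 and 1139.7 with LPS and 699, 739.9 and 1008 with antibody. LPS replicate 3 at 72 h was the highest of all 17 for both genes.

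The changes at 24 h after LPS were ordered by transcript length, and most steeply in 1 library. With the tested genes divided by length into 4 classes of like size, the median log2 change against PBS at 24 h after LPS was 0.16, 0.05, -0.05 and -0.21 from the shortest to the longest. The 20 shorter members (692 to 2871 bases) had a median of 0.31 with 17 positive, and the 20 longer (2960 to 11130 bases) had a median of -0.01 with 10 positive. In the single library that stood apart, LPS replicate 1 at 24 h, the level relative to the PBS mean was 0.42 in the shortest class of all genes and -0.51 in the longest, and 0.61 in the shorter and -0.16 in the longer members. In LPS replicates 2 and 3 the shortest class was at 0.014 and 0.059 and the longest at -0.068 and -0.13, with the shorter members at 0.27 and 0.095 and the longer at 0.12 and -0.12. With antibody at 24 h the classes were at 0.14, 0.07, -0.01 and -0.17, and the shorter and longer members at 0.22 and -0.07. At 72 h after LPS the classes ran from 0.10 to -0.11, whereas the shorter and longer members were at 0.27 and 0.22. With antibody at 72 h they ran from 0.01 to -0.03, and the members were at 0.16 and 0.09. Length orders all genes here, not these 40 alone, and its part in the calls was not tested. Kif23 (3398 bases) and Nusap1 (2960 bases) had the lowest changes of the 40 at 24 h after LPS.

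**Figure D5:**
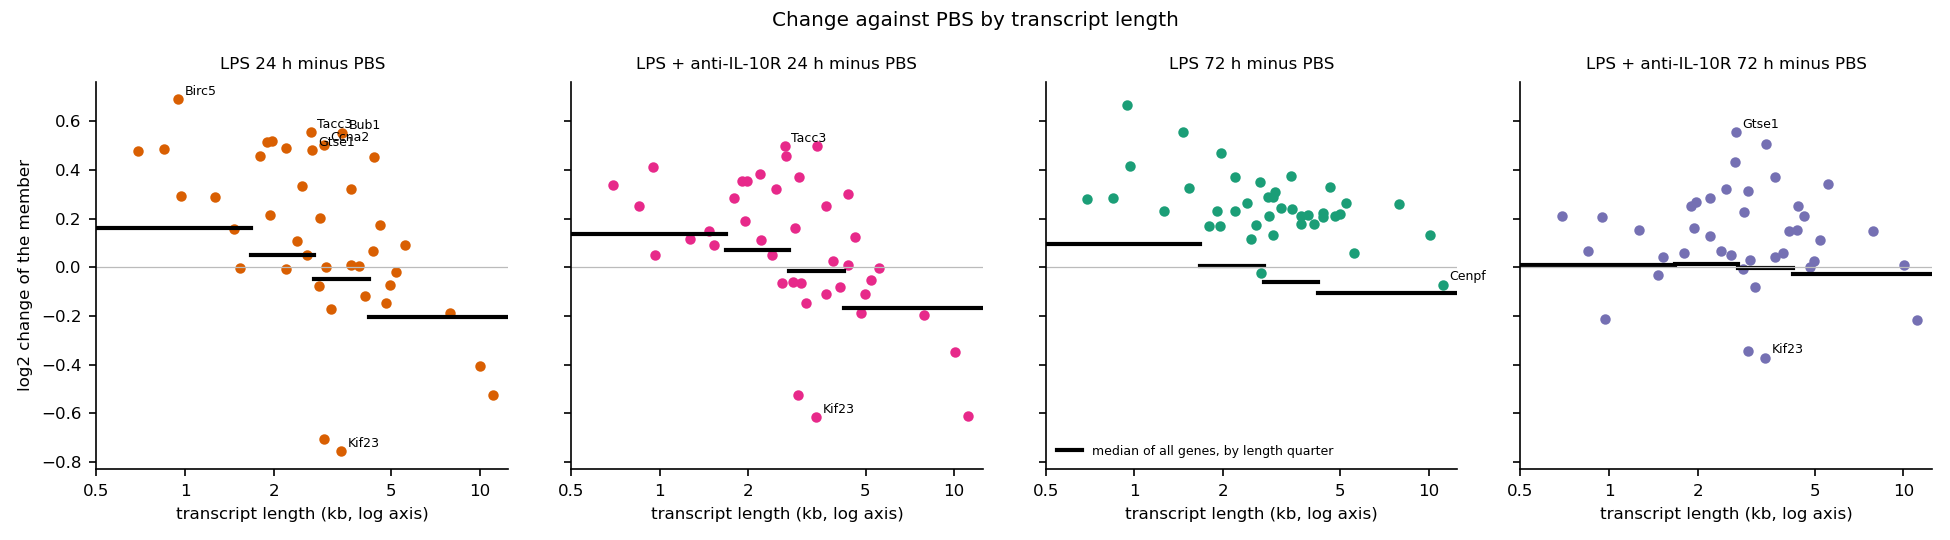
Log2 change against PBS (y axis) of each of the 40 genes against transcript length (x axis, kb, log scale) in the 4 treated groups. Points are genes, named where called or lowest, and black lines are the medians of all tested genes by length class; at 24 h after LPS the lines step from 0.16 down to -0.21.

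A further 53 genes of mitosis outside the 40 (regulators, kinetochore and spindle genes) were read in the same way. At 24 h after LPS, 4 rose and 2 fell, 11.3% of the 53 against 37.6% of all genes, with a median log2 change of 0.14. Mybl2 encodes B-Myb, the activator that binds with the MuvB core at late cell cycle promoters. Its level was 84.5, 54.1, 73.4, 77.98 and 64.5 CPM with PBS, 157, 123 and 157 with LPS at 24 h and 133, 177 and 118 with antibody at 24 h. At the later time it was 55.5, 63.05 and 69.8 with LPS and 134, 145 and 128 with antibody. The PBS and LPS 72 h libraries thus lay between 54.1 and 84.5 CPM, and all libraries of the other 3 groups lay between 118 and 177 CPM.

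Mybl2 rose against PBS at 24 h after LPS by 1.04 (SE 0.153, edgeR adjusted p = 4.87e-04) on the log2 scale. It rose with antibody by 1.01 (SE 0.154, edgeR adjusted p = 0.00352) at 24 h and by 0.94 (SE 0.154, edgeR adjusted p = 0.00585) at 72 h. At the later time it was higher with antibody than without by 1.11 (SE 0.178, edgeR adjusted p = 0.00184). It fell between 24 h and 72 h after LPS by 1.21 (SE 0.178, edgeR adjusted p = 2.99e-04) on the log2 scale. These 5 calls of Mybl2 held in all other settings run. At 72 h after LPS alone, Mybl2 had the lowest change of the 53 against PBS, -0.17 (SE 0.158, edgeR adjusted p = 0.685), which did not pass.

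The other genes of the 53 that rose at 24 h after LPS were Ube2s, which extends ubiquitin chains for the APC/C, by 0.79 (SE 0.206, edgeR adjusted p = 0.00814), Anapc1, the largest APC/C subunit, by 0.43 (SE 0.151, edgeR adjusted p = 0.0344), and Ska1, a kinetochore protein, by 0.79 (SE 0.215, edgeR adjusted p = 0.00984). Cdc25b, a phosphatase that activates Cdk1, fell by 0.72 (SE 0.206, edgeR adjusted p = 0.0132), and Psrc1, a microtubule-binding protein, by 0.54 (SE 0.165, edgeR adjusted p = 0.0181). The last 2 calls were lost in a fit blocked on replicate number, at an adjusted p of 0.0723 and 0.0593. Without LPS replicate 1 the count was 2, and the change of Ube2s was 0.41 (adjusted p = 0.0904).

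With antibody at 24 h, Ska1 rose against PBS too, by 0.63 (SE 0.215, edgeR adjusted p = 0.0436). Cdc25b was lower there, the fitted change being -0.62 (SE 0.205, edgeR adjusted p = 0.0391), as was Nfya, a subunit of the CCAAT-binding factor NF-Y, with -0.47 (SE 0.162, edgeR adjusted p = 0.0454). With antibody at 72 h the change of Cdc25b was -0.70 (SE 0.206, edgeR adjusted p = 0.0381) and that of Nfya was -0.53 (SE 0.162, edgeR adjusted p = 0.0428). With Mybl2 these made 4 of the 53 at 24 h (7.55% against 24.2% of all genes) and 3 at 72 h (5.66% against 13.2%). With any library left out, 1 or 2 of the 53 were called in either comparison. At 72 h after LPS alone, 0 of the 53 differed from PBS by edgeR (4 at an unadjusted p below 0.05), with 0 by DESeq2 and 3 by voom. Pttg1, encoding securin, was the highest there, 0.53 (SE 0.319, edgeR adjusted p = 0.547).

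Cdc25b stood at 39.6, 50.5, 59.2, 69.8 and 52.4 CPM with PBS, 25.2, 44.2 and 29.5 with LPS at 24 h and 54.6, 48.2 and 63.8 with LPS at 72 h. With antibody Cdc25b stood at 37.5, 26.8 and 41.6 CPM at 24 h and 35.1, 34.7 and 30.9 CPM at 72 h. Psrc1 stood at 23.7, 23.9, 27.3, 30.1 and 25.3 CPM with PBS, 15.6, 17.3 and 20.9 with LPS at 24 h and 36.01, 35.1 and 33.4 with LPS at 72 h. With antibody Psrc1 stood at 26.3, 16.01 and 26.2 CPM at 24 h and 23.9, 18.6 and 22.1 CPM at 72 h. The LPS libraries at 72 h lay above those of all other groups for Psrc1.

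Between 24 h and 72 h after LPS, Psrc1 rose by 0.96 (SE 0.182, edgeR adjusted p = 0.00142) on the log2 scale and Cdc25b by 0.75 (SE 0.226, edgeR adjusted p = 0.0201). Ube2s fell by 0.68 (SE 0.236, edgeR adjusted p = 0.0389) and Anapc1 by 0.61 (SE 0.171, edgeR adjusted p = 0.0145). Without LPS replicate 1 at 24 h the change of Ube2s was -0.27 (adjusted p = 0.304), and leaving out any library at 72 h also lost the call. The call of Ube2s was lost in 4 of the 7 other settings too. With Mybl2 this made 5 of the 53 (9.43% against 31.1% of all genes), 10 with upper-quartile scaling and 3 without LPS replicate 1 of either time.

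At 72 h, Lin54, a DNA-binding subunit of the MuvB core, and Anapc1 were higher with antibody than without, by 0.64 (SE 0.208, edgeR adjusted p = 0.0480) and 0.59 (SE 0.171, edgeR adjusted p = 0.0302). Cdc25b and Psrc1 were lower, with differences of -0.73 (SE 0.226, edgeR adjusted p = 0.0415) and -0.69 (SE 0.181, edgeR adjusted p = 0.0195). With Mybl2 these were 5 of the 53, 9.43% against 15.1% of all genes. The count was 1 without LPS replicate 1 or 2, 2 without antibody replicate 2 and 3 without antibody replicate 1 or 3. At 24 h 0 of the 53 differed between antibody and LPS (0 at an unadjusted p below 0.05, and 0 by DESeq2 and by voom), with differences from -0.26 (SE 0.234, edgeR adjusted p = 1) for Ube2s to 0.35 (SE 0.182, edgeR adjusted p = 1) for Psrc1. Between the antibody groups at 24 h and 72 h there were also 0 (0 at an unadjusted p below 0.05, and 0 by DESeq2 and by voom). There the ends were -0.39 (SE 0.199, edgeR adjusted p = 0.918) for Spc24, a kinetochore protein, and 0.35 (SE 0.361, edgeR adjusted p = 0.920) for Pttg1.

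Genes of S phase, when DNA is copied, were read beside the G2/M genes. Of 20, 17 rose at 24 h after LPS (85% against 19.1% of all genes higher), all but Gins2, Pcna and Slbp. None fell, and the median log2 change was 0.53. The count ran from 12 to 19 over all other settings, 12 without LPS replicate 1 and 12 with upper-quartile scaling among them. The mean level of the 20 was 6.92 to 7.23 log2 CPM in the PBS libraries and 7.90, 7.65 and 7.58 in the LPS libraries. With LPS at 72 h it was 7.07, 7.21 and 7.16. Between the 2 times 15 of the 20 fell, against 2454 of all 14920 genes. The count was 7 with upper-quartile scaling and 6 without LPS replicate 1 at 24 h. It was 6 without replicate 1 and 9 without replicate 2 at 72 h. Against PBS, 0 were called at 72 h after LPS (0 at an unadjusted p below 0.05, and 0 by DESeq2 and by voom).

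With antibody 11 of the 20 S-phase genes rose against PBS at 24 h, against 1743 of all 14920 genes. The count was 3 without antibody replicate 2 and 6 without replicate 3. At 72 h 4 rose (Mcm4, Cdc6, Rrm2 and Ccne1), against 1016 of all genes. That count was 2 without PBS replicate 4 and 1 without PBS replicate 2, 3 or 5 or antibody replicate 3. At 72 h Mcm2 and Ccne1 were higher with antibody than without, against 1289 of all genes. This last count was 0 without LPS replicate 1, and 1 without LPS replicate 2 or antibody replicate 3. Ccne1, cyclin E1, which starts S phase with Cdk2, was picked after its values were seen. It stood at 22.7, 16.3, 13.1, 14.97 and 10.7 CPM with PBS, 52.6, 38.6 and 33.4 with LPS at 24 h and 52.9, 42.6 and 34.2 with antibody at 24 h. At the later time it stood at 13.7, 16.1 and 20.1 with LPS and 36.4, 28.6 and 46.3 with antibody, without overlap. The log2 change was 1.42 (SE 0.232, edgeR adjusted p = 6.66e-04) at 24 h after LPS, and the difference between antibody and LPS at 72 h was 1.15 (SE 0.270, edgeR adjusted p = 0.0116). Markers of other cells also changed, and at 24 h after LPS those called went against the S-phase genes. Over all 14920 genes, 18.5% fell at 24 h and 2192 rose between 24 h and 72 h. Of 8 markers of hematopoietic stem cells, 6 fell at 24 h after LPS (median log2 change -1.49) and 5 rose between 24 h and 72 h (median 1.21). Of 11 B-lymphoid markers, 5 fell at 24 h (median -2.34) and 3 rose between the times (median 1.43). All 12 markers of monocytes and macrophages fell at 24 h (median -4.28), and 1 rose between the times (median -0.14). At 24 h 4 of 10 T and NK, 3 of 8 megakaryocyte and 3 of 8 HSPC markers also fell. Between the times 3 of the T and NK markers (median 1.42) and 3 of the HSPC markers (median 0.29) rose, and 0 megakaryocyte markers were called. Of 12 erythroid markers 1 fell at 24 h and 3 between the times, and of 9 neutrophil markers tested 0 were called. The part of these cells in the S-phase changes was not tested, nor was the difference between the S-phase and the G2/M lists.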

How the data were processed

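RNA with poly(A) tails from 17 libraries was sequenced, and the authors deposited raw read counts per gene, unnormalized whole numbers. The submitters' processing notes name HISAT2 2.2.0, Subread, featureCounts 2.1.1, R 4.3.2, DESeq2 and build GRCm38, without their roles. The annotation, strand setting and treatment of multiply matching reads are not given in the sources used here. Counts were tested here in R 4.3.3 with edgeR 4.0.16: filterByExpr (minimum count 10, minimum total 15), TMM scaling and the quasi-likelihood test, in 1 fit of 17 libraries and 5 groups (12 residual degrees of freedom). Benjamini-Hochberg adjustment ran over the 14920 genes tested in each of 9 comparisons, and an adjusted p below 0.05 was called. CPM values use TMM-scaled totals, and log2 levels add a prior count of 2. The SE was derived from the log2 change and its F statistic. Lengths come from GENCODE M21, matched by symbol for 34158 of the 35321 genes, and start regions from RefSeq.

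DESeq2 1.42.0, voom with sample quality weights (limma 3.58.1), other scalings, no filter, a replicate block, fits of the compared groups alone and leaving out each library were alternatives. Libraries of a group differed beyond counting noise (lowest chi-square per degree of freedom 11.8), so each counted once. Replicate numbers deviated together between PBS and LPS at 24 h (correlations 0.158 to 0.191 in all 3 pairs), above the limit of 0.1 set for pairs. These correlations are low, none is given for unmatched replicate numbers, and the labels state no pairing, so pairing was not established. The main fit had no block, so its p-values for LPS at 24 h against PBS take no account of pairing. With the replicate block 4163 of all genes were called there, against 5616 in the main fit. Between any other 2 groups at least 1 pair was below 0.1, so these were not taken as pairs, although 2 of 3 pairs between the antibody groups correlated (0.723, -0.022 and 0.697).

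The members and the gene lists were chosen with earlier results of these data known. Every library's value is given for 6 usual markers, for members called in a comparison and for the member with the greatest increase or decrease in each. The same was applied to log2 changes of the 53 other mitotic genes.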

Additional observations from a re-analysis of the deposited data

Results flagged for a closer look

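The antibody effect differed between 24 h and 72 h for 2 of the 53 other mitotic genes and for none of the 40, by a test of the difference itself (edgeR interaction term). For Mybl2 the effect at 72 h minus that at 24 h was 1.14 on the log2 scale (SE 0.248, adjusted p = 0.0163), with a range of 1.01 to 1.33 when libraries were left out. The call of Mybl2 was lost without antibody replicate 3 at 24 h (adjusted p = 0.0594) and without LPS replicate 1 at 72 h (adjusted p = 0.0600). It was also lost in 1 of the 7 other settings. For Psrc1 the difference was -1.04 (SE 0.257, adjusted p = 0.0290), with a range of -1.24 to -0.92. The call of Psrc1 was lost with 7 of the 12 libraries left out in turn and in 2 of the 7 other settings. Among those settings was the fit of only the compared groups (adjusted p = 0.0860).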

How the results depend on the processing

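The count of called members differed between tools in the comparisons named next, where DESeq2 and voom also called more of all genes than edgeR did. It was 0 with every tool between antibody and LPS at 24 h, between the antibody groups and for the antibody effect by time. DESeq2 called 10 of the 40 at 24 h after LPS against PBS, 3 with antibody at 24 h against PBS and 2 between antibody and LPS at 72 h, where edgeR called 6, 1 and 0. Voom with sample quality weights called 3 at 72 h after LPS against PBS (edgeR 0; all genes 14.5% against 0.0201%), 2 with antibody at 24 h (1), 0 with antibody at 72 h (1), 4 between antibody and LPS at 72 h (0) and 8 between 24 h and 72 h of LPS (2; all genes 46.6% against 31.1%). Upper-quartile scaling called 0 with antibody at 72 h against PBS, 1 between antibody and LPS at 72 h and 4 between the 2 LPS times. Fits of the compared groups alone called 0, 0 and 1 with antibody at 24 h and at 72 h against PBS and between antibody and LPS at 72 h. Between the LPS times, DESeq2, the replicate block and the fit of the compared groups alone each called 2 higher and 1 lower. Upper-quartile scaling also moved the higher share of all calls from 48.3% to 32.5% and from 51.4% to 32.8% with antibody at 24 h and 72 h against PBS, from 57.1% to 42.4% between antibody and LPS at 72 h, and from 47.2% to 59.2% between the LPS times. It moved the S-phase counts from 11 to 6 with antibody at 24 h against PBS, from 4 to 1 at 72 h and from 15 to 7 between the LPS times. With antibody against PBS the replicate block gave 5 S-phase calls at 24 h and 1 at 72 h, and the fit of the compared groups alone gave 1 at 72 h. With 1 library left out, the count of members ran from 0 to 10 at 24 h after LPS, from 0 to 2 and from 0 to 1 with antibody at 24 h and 72 h against PBS, from 0 to 1 between antibody and LPS at 72 h and from 0 to 2 between the LPS times. With the replicate number as a block, 5 members were called at 24 h after LPS, 2 with antibody at 24 h against PBS and 2 between antibody and LPS at 72 h (Kif23 and Gtse1). Outside PBS against LPS at 24 h the numbers did not meet the rule for pairs. The cause of these differences was not tested. Among the named genes, 4 changes that were not called turned sign. Cenpf at 72 h after LPS was 0.00031 with the block and -0.41 to 0.082 with libraries left out. Between antibody and LPS at 24 h, voom gave -0.046 for Nusap1, 0.081 for Birc5 and 0.043 for Ube2s, and left-out libraries gave -0.24 to 0.48, -0.47 to 0.22 and -0.46 to 0.15. In the 100 bases before the start, the share of members with a CHR was 25% and with both motifs 22.2%. Arms of 3 libraries limit the precision of every comparison.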
